A study of Mus musculus with 42 samples.

Results

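The genes described here are 32 mouse genes of the endoplasmic reticulum (ER) folding machinery and of the unfolded protein response, out of 24421 rows in the whole-brain table and 53546 rows in the cortex and hippocampus table. They were taken from a list of gene names that was drawn up with earlier results of these data known, with no threshold on a measured value: 33 symbols were listed, of which Ero1b and Ero1lb are the newer and the older symbol of 1 gene, and every gene was found in both tables. By role, 18 are ER chaperones and folding enzymes, 7 are stress sensors and transcription factors, and 7 belong to ER-associated degradation and the translocon. The low-count filter kept 31 of the 32 in whole brain and in the comparison of regions, where Trib3 did not pass, and all 32 in cortex and in hippocampus.

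Nearly all secreted and membrane proteins fold in the ER, where the Hsp70-type chaperone BiP (Hspa5), the Hsp90-type chaperone Grp94 (Hsp90b1), the lectins calreticulin and calnexin, and the protein disulfide isomerases hold and oxidise new chains. When unfolded proteins accumulate, the sensors IRE1 (Ern1), PERK (Eif2ak3) and ATF6 raise transcription of these chaperones through XBP1 and cleaved ATF6, while PERK acts through ATF4 and CHOP (Ddit3). Microglia, the resident macrophages of the brain, make many receptors and secreted proteins through this compartment.

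RNA sequencing was done on CD11b+ CD45lo microglia sorted from C57BL/6 mice, giving 42 libraries in 11 groups, and a library is called by housing plus animal number, such as GF529. The whole-brain set was from wild-type (WT) mice aged 6 to 12 weeks (the sample titles read 8 weeks and F), 3 of them raised under specific-pathogen-free (SPF) conditions and 5 germ-free (GF). Cortex came from WT mice at 16 weeks kept SPF, GF, or GF with sodium acetate in the drinking water (GFA), with n = 4 each; the labels give 8 weeks of acetate and also mention a shorter treatment that they tie to no library. Hippocampus came from 16-week WT mice (SPF n = 4, GF n = 3, GFA n = 4) and from 5xFAD mice under the same conditions (n = 4, 3 and 4), which carry human transgenes with familial Alzheimer mutations driven in neurons by the Thy1 promoter. No group carried a conditional deletion, and 11 WT animals gave both cortex and hippocampus.

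Total counts were 19329300 to 25366400 in whole brain, 15790400 to 23860500 in cortex and 5743890 to 22532400 in hippocampus. All 8 microglial marker genes were expressed, with summed levels of 37646 to 74634 CPM (counts scaled to library size) across libraries. Of 10 B and plasma cell genes, the markers Ms4a1, Igkc and Mzb1 did not exceed 0.164 CPM, while Ighm reached 356 to 743 CPM in cortex and hippocampus. The list summed to 393.7 to 817 CPM there and to 84.8 to 124 in whole brain. None of its genes was called for GF or acetate, though all 3 tested in cortex lay below 0 for GF and above 0 for acetate, as chaperones mostly did, and their part was not tested. Y-linked Ddx3y had 0 counts in the 8 whole-brain libraries and 695 to 3048 in the other 34, while Xist had 2212 to 4590 counts in whole brain and at most 28 elsewhere. Whole brain therefore differed from cortex and hippocampus in age, sex-linked expression and counting table together, and these cannot be told apart.

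Promoters are shown because many of these genes are targets of ATF6 and XBP1 through a shared element. The ER stress element (ERSE) is read here as CCAAT, any 9 bases, then CCACG, on either strand, and ERSE-II as ATTGG, any 1 base, then CCACG. RefSeq promoter sequences on build GRCm38.p6 (250 bases before to 50 after the gene start) matched 28 of the 32 genes by symbol, with none for Atf6, Hyou1, Derl1 and Manf. ERSE was present in 9 of the 28 (32.1%) against 37 of 27025 genes in the whole table (0.137%), and ERSE-II in 2 of the 28 (7.14%) against 0.0444%. The 250 bases upstream of Hspa5 (chr2:34771840-34772089, plus strand) and of Hsp90b1 (chr10:86705445-86705694, minus strand) are printed with ERSE matches in capitals, since these encode the main chaperones of the Hsp70 and Hsp90 types.
Hspa5: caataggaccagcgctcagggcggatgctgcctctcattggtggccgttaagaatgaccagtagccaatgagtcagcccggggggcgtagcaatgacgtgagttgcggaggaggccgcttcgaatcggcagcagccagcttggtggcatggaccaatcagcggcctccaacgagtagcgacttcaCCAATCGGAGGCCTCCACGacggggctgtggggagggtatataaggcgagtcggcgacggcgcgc
Hsp90b1: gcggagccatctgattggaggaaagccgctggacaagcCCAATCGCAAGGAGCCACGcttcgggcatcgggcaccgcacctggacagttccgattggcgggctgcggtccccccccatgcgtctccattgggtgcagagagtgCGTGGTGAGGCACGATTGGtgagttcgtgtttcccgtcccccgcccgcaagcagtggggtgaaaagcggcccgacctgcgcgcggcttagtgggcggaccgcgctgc
Hsp90b1 held a copy on each strand, and Hspa5 held 1 exact copy ending 47 bases before the start.

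The windows around the element are given for the other genes on which the comparisons turn, with 10 bases on each side in lower case and the element in capitals. Calr, Ero1b and Creld2 carried it on the reverse strand, Canx and Pdia6 on the forward strand, and Herpud1 carried ERSE-II.
Calr (chr8:84847065-84847103, minus strand): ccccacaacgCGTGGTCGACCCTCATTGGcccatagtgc
Canx (chr11:50325790-50325828, minus strand): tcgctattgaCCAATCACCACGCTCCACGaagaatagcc
Pdia6 (chr12:17266481-17266519, plus strand): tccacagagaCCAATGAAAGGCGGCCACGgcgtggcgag
Ero1b (chr13:12565672-12565710, plus strand): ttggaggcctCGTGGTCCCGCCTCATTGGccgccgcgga
Creld2 (chr15:88819510-88819548, plus strand): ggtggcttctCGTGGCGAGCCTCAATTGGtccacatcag
Herpud1 (chr8:94386367-94386397, plus strand): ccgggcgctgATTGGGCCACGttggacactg
The 9 ERSE genes were Hspa5, Hsp90b1, Calr, Canx, Pdia6, Creld2, Dnajc3, Ero1b and Syvn1, so 8 of the 16 folding genes with a sequence had it and 0 of 6 sensors and transcription factors did. Dnajb11 held ERSE-II after its start. Also, 2 shorter cores were searched on both strands. The UPRE core TGACGTG was in Hspa5 and Txndc5 (7.14% of the 28 genes against 2.22% of all), and the C/EBP-ATF core, TGATG, any 1 base, AA, was in Herpud1, Trib3 and Txndc5 (10.7% against 4.51%). No match of one motif overlapped a match of another in these genes, and a match is a description of the letters only.

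**Figure D1:**
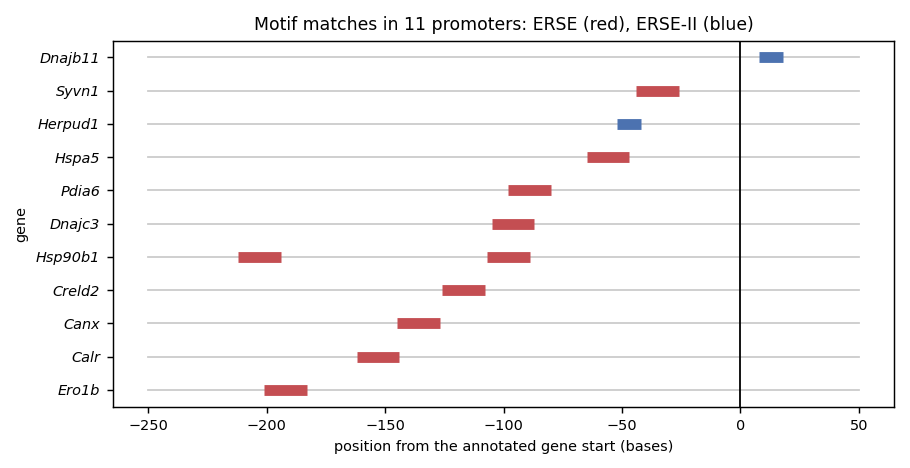
Positions of ERSE (red) and ERSE-II (blue) matches in the 11 promoters that hold one, in bases from the annotated gene start, where grey lines span the 300 bases searched. All matches lie before the start except that of Dnajb11.

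Levels per length were compared in SPF cortex as CPM per kb of merged exons. Pdia3, which oxidises glycoproteins held by calreticulin and calnexin, was the highest of the 32 at 344 ± 29.5 (SD, n = 4), followed by Hspa5 at 275 ± 34.02, Hsp90b1 at 267 ± 22.5, Calr at 214 ± 22.5 and P4hb, the first protein disulfide isomerase, at 186 ± 22.9. Hspa5 and Hsp90b1 differed by less than their SD, and the ranges of mean ± SD of Calr and P4hb overlapped. Xbp1 was the most abundant transcription factor at 145 ± 3.55, while the sensors Eif2ak3, Atf6 and Ern1 stood at 13.6 ± 4.68, 11.9 ± 2.24 and 4.29 ± 1.23. Trib3, a pseudokinase induced by ATF4 and CHOP, was close to 0 at 0.060 ± 0.119.

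In whole brain, 3 ER chaperone genes were higher and 1 folding enzyme gene was lower in GF than in SPF microglia. Calr, Pdia4 and Sdf2l1 rose and Ero1b fell, that is 3 and 1 of the 31 genes tested, against 1.02% and 0.971% of the 11332 genes tested. The median log2 difference over the 18 folding genes was 0.16, with 15 above 0, where the median over all genes was 0.003. Of the 18 folding genes, 6 had every GF library above every SPF library (Calr, Pdia4, Pdia6, P4hb, Sdf2l1 and Creld2) and 1 had every one below (Ero1b). None of the other members was separated. The share of all genes separated in such a way was not counted, here or for the separations below. Here and below, levels are CPM scaled by TMM, log2 differences are fitted by edgeR's quasi-likelihood test, and adjusted p is Benjamini-Hochberg over all genes of the fit with 0.05 as threshold. In bulk RNA, fewer cells of a type and less RNA per cell cannot be told apart.

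Calr, the soluble calcium-binding lectin chaperone, had 1188, 1264 and 1185 CPM in whole-brain SPF libraries and 1608, 1449, 1523, 1498 and 1397 in GF libraries. The groups did not overlap, and the log2 difference was 0.30 (SE 0.05, edgeR adjusted p = 0.0078). Without SPF1 or SPF4 the adjusted p was 0.0601 and 0.059. Sdf2l1, a BiP partner that keeps unfolded chains in the BiP cycle, had 230, 194 and 213 CPM in SPF and 315, 264, 277, 263 and 243 in GF (log2 0.36, SE 0.08, edgeR adjusted p = 0.042). Pdia4, a disulfide isomerase also called ERp72, had 492.8, 501 and 438 CPM in SPF and 653, 572, 616, 565 and 531.7 in GF (log2 0.30, SE 0.07, edgeR adjusted p = 0.047). Both sets were separate, and each call was lost without any single library of 7 of the 8 (edgeR adjusted p 0.0554 to 0.187 for Sdf2l1 and 0.0652 to 0.172 for Pdia4), the exception in each case being GF5.
The GF1 and GF4 libraries carried neutrophil markers (mean log2 1.49 and 3.21 over 9 genes, at most 0.044 in the other whole-brain libraries). Dissociation genes had mean log2 levels of 3.84 to 4.09 in GF against 3.55 to 3.61 in SPF. Their summed levels overlapped, at 655 to 823 CPM in GF and 751 to 760 in SPF. The part of either list in the result was not tested. Without GF1 and GF4, a choice made after seeing the data, Ero1b alone was called in place of 4 genes (log2 -1.22, edgeR adjusted p = 0.017). Calr was then at 0.27 (0.072), Sdf2l1 at 0.30 (0.17) and Pdia4 at 0.27 (0.18) in the same fit, and the median of the folding genes was 0.15 with 15 of 18 above 0. Hspa5, at 2203, 2332 and 2179 CPM in SPF and 2277 to 3251 in GF, overlapped and did not pass (log2 0.24, SE 0.09, edgeR adjusted p = 0.21), nor did Hsp90b1 (log2 0.15, SE 0.06) or Creld2, a thiol oxidoreductase released under ER stress (log2 0.31, SE 0.08, edgeR adjusted p = 0.070).

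**Figure D2:**
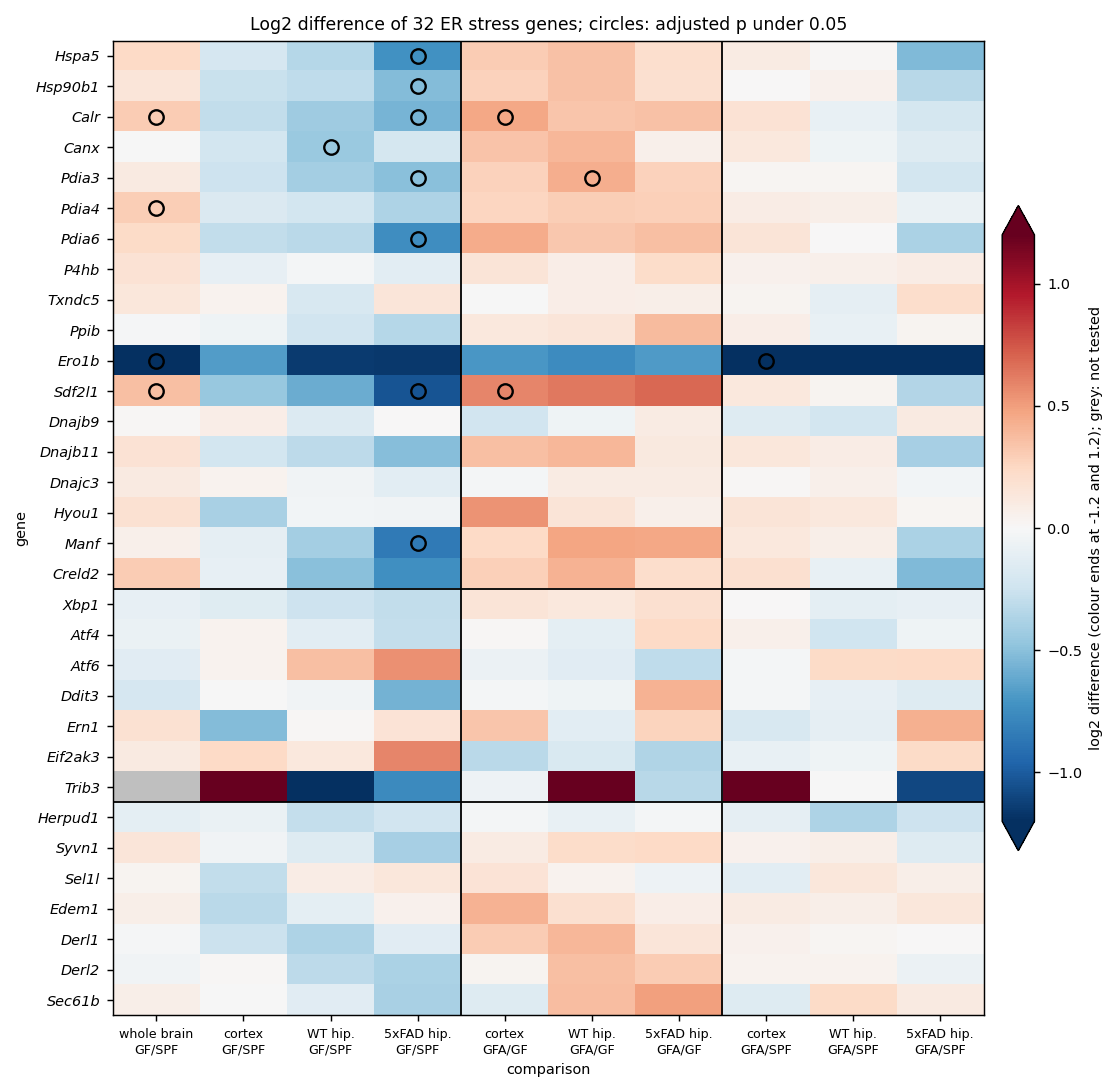
Fitted log2 differences of the 32 genes (rows, by role: folding, sensors and transcription factors, degradation and translocon) in 10 comparisons (columns), with red higher and blue lower in the first-named group and circles for adjusted p under 0.05. Folding genes are mostly red for GF against SPF in whole brain, blue in cortex and hippocampus, and red for acetate against GF; Ero1b is blue in every column, and the strong colours of Trib3 rest on levels near 0.

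In 16-week WT mice the folding genes were on the other side. In cortex GF against SPF, 15 of 18 had a log2 difference below 0 (median -0.21, all genes -0.001), and in hippocampus 18 of 18 did (median -0.32, all genes 0.000). Single genes seldom passed the test. In cortex none of the 32 did by edgeR, against 0.873% of 15113 genes higher and 0.84% lower. There 10 had an unadjusted p under 0.05, against 2079 of all genes, and DESeq2 called 1 (Sdf2l1). In WT hippocampus 1 of 32 was lower and 0 higher, against 0.399% and 0.328% of 17063 genes. There 13 had an unadjusted p under 0.05, against 2151 of all genes, and DESeq2 called 3 (Calr, Canx and Pdia3). The share of all genes called by DESeq2 is not given, here or below, so no excess can be read from its counts.

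Canx, the membrane-bound lectin chaperone calnexin, was the gene that fell in WT hippocampus. It had 634, 614, 565 and 611 CPM in SPF1 to SPF4 and 467, 402 and 462 CPM in GF529, GF530 and GF532, with no overlap (log2 -0.45, SE 0.10, edgeR adjusted p = 0.031). The call was lost without SPF1, SPF2, SPF4, GF529, GF530 or GF532 in turn (edgeR adjusted p 0.0572 to 0.151). Cortex under the same conditions gave 742, 591, 581 and 647 CPM in SPF and 565, 491, 575 and 566 in GF, also separate, at log2 -0.22 (SE 0.09, edgeR adjusted p = 0.28). Calr in WT hippocampus had 833, 780.5, 685 and 642 CPM in SPF and 492, 547 and 607 in GF (log2 -0.42, SE 0.11, edgeR adjusted p = 0.079), and Pdia3 reached log2 -0.41 (SE 0.10, edgeR adjusted p = 0.054). Hspa5 had log2 -0.20 (SE 0.13) in cortex and -0.34 (SE 0.17) in hippocampus.
In hippocampus 8 of the 18 folding genes had every GF library below every SPF library (Hspa5, Calr, Canx, Pdia3, Pdia6, Ero1b, Sdf2l1 and Manf), and in cortex 3 did (Hsp90b1, Canx and Ero1b). With so few libraries per group, and the share of all genes separated like this not counted, no excess can be read from these counts. The 8 microglial markers were lower in GF as well, with summed levels of 40726 to 45885 CPM against 46832 to 60037 in cortex and 39512 to 40839 against 48879 to 54244 in hippocampus (1 and 2 of 8 called lower). GF530 was highest of the WT hippocampal GF libraries for dissociation genes (mean log2 7.36) and GF532 carried neutrophil markers (3.02). The part of these in the chaperone difference was not tested.

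In GF mice given acetate most folding genes lay above their level in GF mice without it. The median log2 difference of GFA against GF over the 18 was 0.28 in cortex (14 above 0), 0.33 in WT hippocampus (16 above 0) and 0.20 in 5xFAD hippocampus (17 above 0). Genes past the test were Calr and Sdf2l1 in cortex (2 of 32 higher and 0 lower, against 0.45% and 0.523% of all genes). In WT hippocampus Pdia3 passed (1 higher and 0 lower, against 0.229% and 0.264%). In 5xFAD none did (0 and 0 by edgeR, against 0.0176% and 0.0645%). There 10 had an unadjusted p under 0.05, against 1286 of 17063 genes, and DESeq2 called 1, Sdf2l1. These comparisons share the GF libraries with those of GF against SPF, so a GF group that lies low gives both differences. The microglial markers were higher with acetate too, at 49972 to 54814 CPM in cortex and 50217 to 51674 in WT hippocampus (1 of 8 called in each) and 43180 to 45278 in 5xFAD (0 called), and their part was not tested.

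In cortex, Calr had 503, 462, 560 and 489 CPM in GF and 765, 647, 725 and 651 in GFA, with no overlap (log2 0.47, SE 0.09, edgeR adjusted p = 0.023). Sdf2l1 had 84.4, 66.3, 89.4 and 67.3 CPM in GF and 115, 115, 119 and 112 in GFA, also separate (log2 0.59, SE 0.12, edgeR adjusted p = 0.021). Calr kept its call without GF530 alone and lost it without any of the other 7 libraries (edgeR adjusted p 0.0535 to 0.0989), while Sdf2l1 kept it without GF530 or GFA518 (0.0561 to 0.0961 without the rest). In WT hippocampus Pdia3 had 802, 1034 and 894 CPM in GF and 1112, 1305, 1240 and 1258 in GFA (log2 0.43, SE 0.10, edgeR adjusted p = 0.048). It was lost without GF529, GF532, GFA523, GFA524 or GFA525 (edgeR adjusted p 0.0898 to 0.226), with RLE size factors (0.0583), with no filter (0.0639) and in a fit of the 2 groups alone (0.326). The fit of the 2 cortex groups alone gave 6 calls and not 2.

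Against SPF, GFA folding genes lay close to 0 in WT mice (median log2 0.09 in cortex and 0.02 in hippocampus) and at -0.22 in 5xFAD, where it was 0.05 without SPF2140 and SPF2142, described below. In cortex 1 of 32 genes was lower, Ero1b, and 0 higher, against 0.139% and 0.225% of all genes. In WT hippocampus 0 were called by edgeR in either direction, against 0.0996% of all genes higher and 0.0234% lower. There 3 had an unadjusted p under 0.05, against 1370 of 17063 genes, and DESeq2 called 1, Ero1b. In 5xFAD hippocampus the count was also 0 by edgeR, against 0.0469% and 0.00586%. There 9 had an unadjusted p under 0.05, against 1147 of 17063 genes, and DESeq2 called 1, Ero1b. A p above the threshold does not show that GFA and SPF levels were alike.

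The largest number of calls came from 5xFAD hippocampus, where 7 of 32 genes were lower in GF than in SPF and 0 were higher, against 0.914% and 0.908% of all genes. The 7 were Hspa5, Hsp90b1, Calr, Pdia3, Pdia6, Sdf2l1 and Manf, all of the folding group, whose median log2 difference was -0.51 with 16 of 18 below 0. Among these, ERSE was found in Hspa5, Hsp90b1, Calr and Pdia6, and Manf had no promoter sequence to search. Over all folding genes with a sequence it was found in 8 of 16, among them Canx, Creld2, Dnajc3 and Ero1b, which were not called here. DESeq2 called 10 (9 lower, and Atf6 higher). Its share over all genes is not given, so no excess can be read from this count.

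Pdia6, a disulfide isomerase that also binds BiP clients, had 720, 744, 501 and 559 CPM in SPF2140, SPF2142, SPF2152 and SPF2153 and 390, 385 and 356 in GF526, GF527 and GF531 (log2 -0.74, SE 0.12, edgeR adjusted p = 0.0019). It was the only 1 of the 7 whose call held without each of the 7 libraries in turn. Hspa5 had 2217, 2094, 1102 and 1405 CPM in SPF and 1094, 1080 and 915 in GF (log2 -0.73, SE 0.17, edgeR adjusted p = 0.026), so SPF2152 lay almost at the GF level. Hsp90b1 had 1591, 1639, 1233 and 1439 CPM in SPF and 1056, 1095 and 939 in GF (log2 -0.52, SE 0.10, edgeR adjusted p = 0.0082). Calr had 1072, 1019, 806 and 858 CPM against 722, 615 and 571 (log2 -0.56, SE 0.11, edgeR adjusted p = 0.0082), the opposite direction to whole brain. All of these SPF and GF groups were separate.
Sdf2l1 had 254, 312, 131 and 186 CPM in SPF and 122, 104 and 95.7 in GF, the widest difference of the 7 (log2 -1.04, SE 0.22, edgeR adjusted p = 0.010). Manf, a secreted protein held in the ER by BiP and released under stress, had 199, 191, 109 and 119 CPM against 89.1, 81.8 and 86.9 (log2 -0.84, SE 0.17, edgeR adjusted p = 0.0071). Pdia3 had 1508, 1646, 1300 and 1514 CPM against 1088, 1069 and 1008 (log2 -0.50, SE 0.10, edgeR adjusted p = 0.0077). Creld2 (log2 -0.74, SE 0.27), Dnajb11, a BiP co-chaperone (-0.51, SE 0.16), and Pdia4 (-0.37, SE 0.10) did not pass. Without SPF2140 and SPF2142, described next, these were at -0.02, -0.21 and -0.26.

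**Figure D3:**
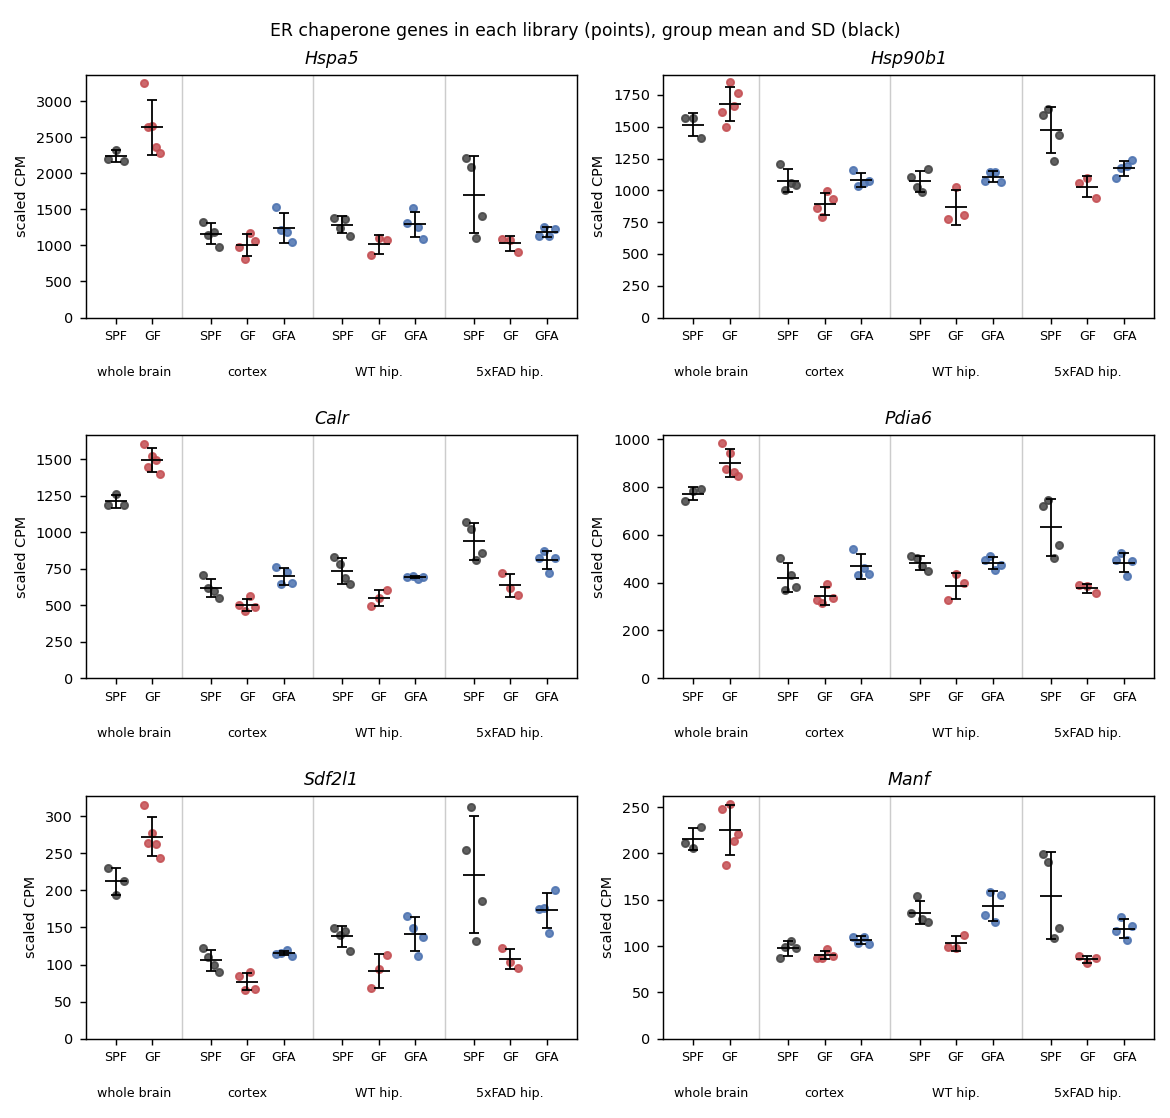
Scaled CPM of 6 ER chaperone genes in each library (points: black SPF, red GF, blue GFA) with the group mean and SD (black). In 5xFAD hippocampus 2 of the 4 SPF libraries stand high for Hspa5, Sdf2l1 and Manf, and GF values of Calr lie wholly above SPF in whole brain, wholly below in hippocampus and overlap in cortex; levels of whole brain and of the other tissues come from separate tables.

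The 4 SPF 5xFAD libraries were of unequal kind. SPF2140 and SPF2142 were both above SPF2152 and SPF2153 for 14 of the 18 folding genes, with a median ratio of 1.32, and for 16 of 24 cytosolic and mitochondrial heat shock genes. How often all genes had this order was not counted. The inducible cytosolic chaperone Hspa1a had 143 and 115 CPM in SPF2140 and SPF2142 against 10.3 and 46.8 in the other SPF libraries and 0.958 to 3.77 in GF. The mean log2 level of the heat shock list was 6.10 and 6.06 in those libraries, 5.12 and 5.43 in the other SPF libraries and 4.75 to 4.97 in GF. SPF2142 was also shallow, at 5743890 counts. Of that list 4 of 23 genes were called lower in GF (Hsp90ab1 -1.39, Dnaja1 -1.09, Ahsa1 -0.78 and Hspa1b, whose GF libraries had 0 to 1.52 CPM), with a median log2 of -0.75.
Without SPF2140 and SPF2142, a choice made after seeing the data, 1 gene was called in place of 7. Pdia6 stayed at log2 -0.50 (SE 0.11, edgeR adjusted p = 0.046), Hspa5 was at -0.29 (SE 0.14, edgeR adjusted p = 0.59), Sdf2l1 at -0.57, Manf at -0.41, Calr at -0.39, Hsp90b1 at -0.38 and Pdia3 at -0.42, and the median of the folding genes was -0.27 with 14 of 18 below 0. Single libraries mattered too: Hspa5 lost its call without SPF2140, SPF2142, GF526, GF527 or GF531 (edgeR adjusted p 0.0602 to 0.201), Calr and Sdf2l1 without GF527 or GF531 (0.0693 to 0.114), Hsp90b1 and Pdia3 without GF531 (0.111 and 0.0853) and Manf without GF527 (0.0586). Calls over the 32 genes ranged from 2 to 9 across these omissions, and a fit of the 2 groups alone gave 3.
Genes raised by tissue dissociation moved as well. Of 13, Fos, Dusp1, Ier2 and Zfp36 were higher in GF (log2 1.82, 2.03, 1.57 and 0.82) and Hspa1b was lower, with summed levels of 3950 to 4518 CPM in GF against 1979 to 3210 in SPF. Mean log2 levels of the 13 overlapped, at 6.07 to 6.42 in GF and 5.92 to 6.49 in SPF. Microglial markers summed to 38003 to 39036 CPM in GF and 37646 to 51005 in SPF, with 2 of 8 called lower. Border macrophage markers had mean log2 levels of 0.415 to 0.685 in GF against 0.959 to 1.71 in SPF (summed 3.29 to 7.71 against 11.84 to 28.02 CPM, 0 of 4 tested called, Cd209a at 0 throughout). Astrocyte genes summed to 473 to 479 CPM in GF against 240 to 310 in SPF, with 1 of 4 called higher (Slc1a3, log2 0.83). Mean log2 levels of the astrocyte list overlapped, at 1.70 to 2.11 in GF and 1.74 to 2.15 in SPF. SPF2153 carried neutrophil markers (mean log2 3.33, against at most 0.123 in the GF libraries). The part of these in the chaperone result was not tested.

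**Figure D4:**
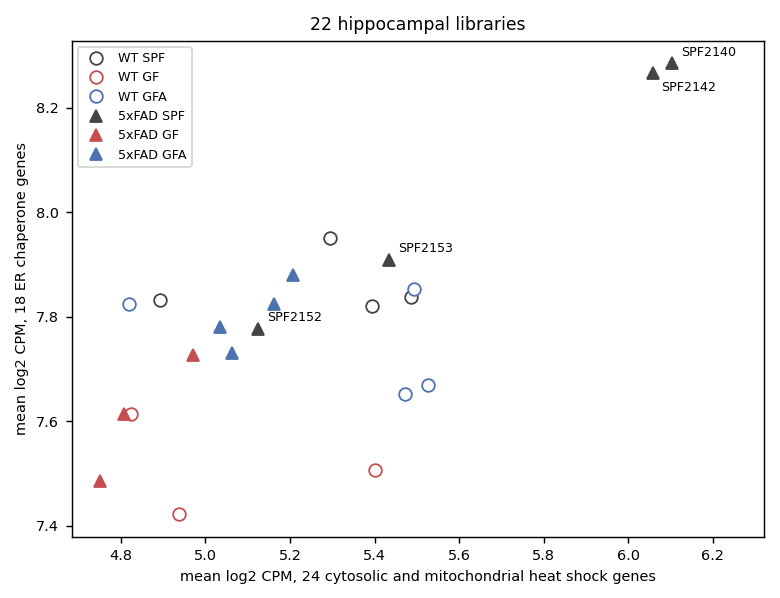
Mean log2(CPM + 1) of the 18 ER folding genes (vertical) against that of 24 cytosolic and mitochondrial heat shock genes (horizontal) in the 22 hippocampal libraries, with open circles for WT, filled triangles for 5xFAD and colours for housing. SPF2140 and SPF2142 stand apart at the upper right, and 5 of the 6 GF libraries lie below all others on the vertical axis, GF526 being above GFA524 and GFA518.

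Genotype was compared within each housing. In SPF hippocampus 1 of 32 genes was higher in 5xFAD, Hsp90b1, and 1 lower, Herpud1, against 0.363% and 0.205% of all genes. In GF none was called by edgeR, against 0.557% higher and 0.199% lower. There 6 had an unadjusted p under 0.05, against 1810 of 17063 genes, and DESeq2 called 2, Canx and Herpud1. In GFA 0 were higher and Herpud1 was lower, against 1.83% and 0.674%.

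Herpud1, a membrane protein of the ER-associated degradation complex that unfolded proteins induce, had 274, 302, 320 and 277 CPM in WT SPF and 229, 220, 216 and 157 in 5xFAD SPF. The groups were separate (log2 -0.52, SE 0.10, edgeR adjusted p = 0.018). In GF it had 249, 213 and 262 CPM in WT and 178, 167 and 180 in 5xFAD (log2 -0.46, SE 0.12, edgeR adjusted p = 0.071), and in GFA 232, 241, 214 and 220 CPM against 166, 166, 178 and 180 (log2 -0.39, SE 0.10, edgeR adjusted p = 0.037). Every 5xFAD library was below every WT library in GF and in GFA also. The SPF call was lost without WT SPF2, WT SPF3 or 5xFAD SPF2153 (edgeR adjusted p 0.0546 to 0.0723) and without SPF2140 and SPF2142 together, where the log2 was -0.66 (0.060). The GFA call was lost without each of the 8 libraries (0.0569 to 0.111).
Hsp90b1 had 1105, 1024, 987 and 1168 CPM in WT SPF (log2 0.46, SE 0.10, edgeR adjusted p = 0.023), below all 5xFAD SPF values given above. Its call was lost without WT SPF2, WT SPF3, SPF2140, SPF2142 or SPF2153 (edgeR adjusted p 0.0546 to 0.110), and was at log2 0.31 (0.56) without SPF2140 and SPF2142. In that SPF comparison 4 of 13 dissociation genes were lower in 5xFAD (Fos -1.80, Fosb -2.67, Junb -1.04 and Dusp1 -1.60), and their part was not tested. The test of whether the GF difference depends on genotype called 0% of all genes by edgeR, and 0 of 32 by edgeR and by DESeq2. At an unadjusted p under 0.05 there was 1, against 942 of 17063 genes. For acetate against GF the calls were again 0 of both, with 2 at an unadjusted p under 0.05, against 905 of all genes. For Hspa5 the GF difference between genotypes was -0.39 (SE 0.24) and for Manf -0.44 (SE 0.23). Without SPF2140 and SPF2142 they were 0.06 (SE 0.18) and -0.004 (SE 0.17), so that of Hspa5 changed sign, and the median of the folding genes went from -0.12 to 0.04.

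Ero1b, which encodes an oxidase that recharges the protein disulfide isomerases, was the only 1 of the 32 genes whose GF libraries lay wholly below the SPF libraries in all 4 settings. In whole brain it had 42.7, 32.8 and 27.02 CPM in SPF and 16.3, 12.99, 14.7, 12.9 and 16.4 in GF (log2 -1.22, SE 0.16, edgeR adjusted p = 0.0014). This call held without each of the 8 libraries. In cortex it had 35.8, 37.4, 33.2 and 32.7 CPM in SPF, 26.4, 20.9, 28.3 and 11.6 in GF and 13.5, 9.55, 11.1 and 19.7 in GFA. The GFA group was below SPF (log2 -1.37, SE 0.25, edgeR adjusted p = 0.016), a call lost without SPF2, GFA518, GFA523 or GFA524 (0.0588 to 0.0855), while GF against SPF did not pass (log2 -0.67, SE 0.24, edgeR adjusted p = 0.19).
In WT hippocampus Ero1b had 35.5, 35.6, 48.6 and 32.03 CPM in SPF, 22.6, 18.1 and 10.9 in GF and 5.71, 9.09, 7.12 and 19.04 in GFA. In 5xFAD hippocampus it had 45.2, 56.2, 34.4 and 32.5 CPM in SPF, 32.1, 16.8 and 7.47 in GF and 8.27, 7.90, 20.4 and 10.1 in GFA. GF was at log2 -1.14 (SE 0.43, edgeR adjusted p = 0.265) and -1.16 (SE 0.43, edgeR adjusted p = 0.23) from SPF, with GF526 at 32.1 CPM only just under the lowest SPF library. GFA was lower still, at -1.90 (SE 0.41, edgeR adjusted p = 0.072) and -1.84 (SE 0.40, edgeR adjusted p = 0.12), neither past the threshold by edgeR and both by DESeq2. Ero1b was also the only folding gene on the lower side of GF with acetate in all 3 sets, with log2 differences of -0.70 (SE 0.25), -0.75 (SE 0.42) and -0.68 (SE 0.42) that did not pass. The border macrophage marker Mrc1 was lower in cortex too, at 20.1 to 34.2 CPM in SPF, 6.76 to 10.97 in GF and 6.53 to 12.5 in GFA (log2 -1.61 and -1.57 from SPF, both called). In WT hippocampus it was at 11.4 to 26.4, 1.27 to 9.32 and 0.0673 to 8.84 CPM, while the markers Cd209a and Lyve1 were at 0 in both tissues of WT mice at 16 weeks. The border macrophage list as a whole had mean log2 levels of 0.876 in SPF and 0.877 in GF of whole brain. In 5xFAD hippocampus the list was at 1.31 in SPF, 0.542 in GF and 1.46 in GFA. The part of Mrc1 or of this list in the Ero1b result was not tested.

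**Figure D5:**
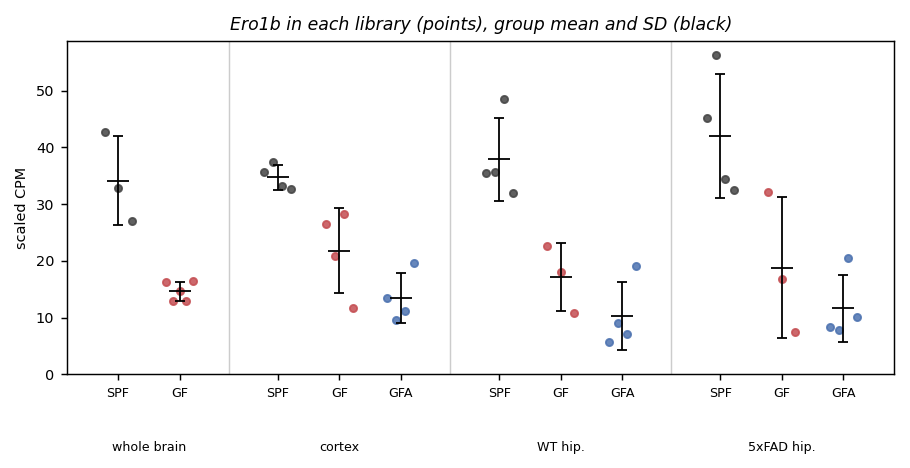
Scaled CPM of Ero1b in each library (points: black SPF, red GF, blue GFA) with the group mean and SD (black). SPF libraries lie between 27.02 and 56.2 CPM and all GF and GFA libraries lie below the SPF libraries of their own tissue and genotype.

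None of the 7 sensors and transcription factors was called by edgeR in any of the 20 comparisons, each of which called at most 1.83% of all genes in a direction. In 5xFAD GF against SPF, 5 of the 7 had an unadjusted p under 0.05, against 2025 of 17063 genes. DESeq2 called 1 of the 7 (Atf6), 4 lay below 0 and the median log2 was -0.29. Whether they differ from the chaperones was not tested. Xbp1, whose spliced product switches on ER folding and degradation genes, had mean levels of 720 ± 35.4 CPM (SD, n = 3) in SPF and 671 ± 59.4 (n = 5) in GF whole brain. In hippocampus it was at 488 ± 37.4 CPM (n = 4) in WT SPF, 411 ± 56.8 (n = 3) in WT GF, 412 ± 72.5 (n = 4) in 5xFAD SPF and 336 ± 19.6 (n = 3) in 5xFAD GF (log2 -0.29, SE 0.12, edgeR adjusted p = 0.32). These counts do not separate spliced from unspliced Xbp1. In 5xFAD hippocampus Atf6, the sensor cleaved in the Golgi, lay the other way, at 86.5 to 96.3 CPM in SPF and 110 to 141 in GF (log2 0.55, SE 0.17, edgeR adjusted p = 0.12), as did Eif2ak3 (log2 0.59, SE 0.27, edgeR adjusted p = 0.39). Without SPF2140 and SPF2142, Xbp1 was at -0.09, Atf6 at 0.57 and Eif2ak3 at 0.49.
Atf4, the factor translated when eIF2 alpha is phosphorylated, was at 157 to 204 CPM in 5xFAD SPF and 143 to 150 in GF, separate but not called (log2 -0.29, SE 0.12, edgeR adjusted p = 0.30, and log2 -0.17 without SPF2140 and SPF2142). Ddit3, which encodes the factor CHOP, was at log2 -0.57 (SE 0.25) in 5xFAD GF against SPF and at -0.20 (SE 0.21) in whole brain and -0.05 (SE 0.24) in WT hippocampus. Trib3 stayed at or below 2.25 CPM in every library. Dnajb9, a BiP co-chaperone induced by XBP1, had 41.7 ± 10.4 CPM (n = 4) in 5xFAD SPF and 41.8 ± 4.57 (n = 3) in GF, with a log2 difference of 0.01 (SE 0.18). Without SPF2140 and SPF2142 that of Dnajb9 was 0.31 (SE 0.19) and that of Ddit3 -0.41 (SE 0.29), neither past the threshold.

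Of the 7 genes of ER-associated degradation and the translocon, Herpud1 alone was called, in the comparisons of genotype above. Syvn1, the ubiquitin ligase of this pathway, and Derl2, a channel subunit, had all 5xFAD GF libraries below SPF (log2 -0.39, SE 0.15, and -0.38, SE 0.15) without passing. Derl1 was at log2 -0.37 (SE 0.11, edgeR adjusted p = 0.13) in WT hippocampus GF against SPF and at 0.40 (SE 0.11, edgeR adjusted p = 0.12) with acetate. Edem1, which trims glycans of misfolded proteins, was at -0.32 (SE 0.13) and 0.42 (SE 0.13) in the same comparisons of cortex. Sel1l, the partner of Syvn1, and Sec61b, a translocon subunit, were not called in any comparison by edgeR.

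Regions were compared within animals, with the animal as a block. By edgeR 0 of 31 genes differed between hippocampus and cortex in SPF, GF or GFA mice, against 0.156% higher and 0.563% lower, 0.012% and 0.0239%, and 0.694% and 1.68% of 16706 genes, in that order. At an unadjusted p under 0.05 there were 14, 5 and 11, against 2322, 1983 and 2993 of the 16706 genes. DESeq2 called 9, 3 and 7 of the 31. Manf was closest by edgeR, higher in hippocampus by log2 0.46 (SE 0.11, edgeR adjusted p = 0.055) in SPF and 0.40 (SE 0.10, edgeR adjusted p = 0.058) in GFA. Tests of whether the GF or the acetate difference depends on region called 0% of all genes by edgeR, and 0 of 31 by edgeR and by DESeq2. At an unadjusted p under 0.05 there were 2 and 0, against 900 and 732 of all genes.

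Other genes of the same pathways were tested too, and up to 3 called genes per direction are named from each list. Over all genes, 1.02% were higher and 0.971% lower in whole-brain GF, and 0.908% and 0.914% in 5xFAD GF against SPF. Shares for the other comparisons are given above. For the stress response and sensor lists the numbers called are not given. Of 30 further ER folding and redox genes, 0 were called in whole brain (28 tested), and 2 were lower in 5xFAD GF against SPF (Mcfd2 -0.48 and Erp29 -0.46, of 29 tested). Of 33 genes of the translocon, signal peptidase and N-glycosylation, Ssr1 and Rpn1 rose in whole-brain GF (log2 0.48 and 0.22) and Spcs2 fell in 5xFAD GF (-0.42). Tram1, which helps chains enter the membrane at the translocon, fell in WT hippocampus GF (log2 -0.51, SE 0.10, edgeR adjusted p = 0.016) and rose with acetate (0.53, SE 0.10, edgeR adjusted p = 0.013), from 390 to 473 CPM in SPF to 292 to 323 in GF and 416 to 465 in GFA. Of 26 ERAD genes 0 were called in any GF, SPF or acetate comparison, and Os9, a lectin that delivers misfolded glycoproteins, was higher in 5xFAD than WT in GF and GFA (log2 0.77, SE 0.11, and 0.65, SE 0.10).
Of 37 genes of the integrated stress response, Ddit4, an inhibitor of mTORC1 that ATF4 and glucocorticoids both raise, was 2.03 to 3.40 CPM in whole-brain SPF and 29.2 to 62.8 in GF (log2 4.07, SE 0.26, edgeR adjusted p = 1.8e-06). In 5xFAD hippocampus it was 0.575 to 3.55 CPM in SPF and 36.9 to 58.8 in GF (log2 4.39, SE 1.07, edgeR adjusted p = 0.040). Its levels in cortex and WT hippocampus are not given here, and any link to the chaperone differences was not tested. Psat1, a serine synthesis enzyme under ATF4, was higher in 5xFAD than WT in GF (log2 1.78, SE 0.36) and GFA (2.48, SE 0.32) and fell with acetate in cortex (-1.11, SE 0.21). Nupr1, a stress-induced chromatin protein, fell in 5xFAD GF (-1.38, SE 0.28). Of 20 genes of sensor processing and ER stress fate, Rtcb, the ligase that joins Xbp1 exons, rose in 5xFAD GF against SPF (0.74) and in GFA 5xFAD against WT (0.56). Of the cytosolic and mitochondrial heat shock genes, Hsp90ab1 and Hspa8 rose in whole-brain GF (log2 0.46 and 0.36). They were 2 of 22 tested, with 0 lower, against 1.02% and 0.971% of all genes, and the list's median was 0.06 with 7 below 0.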

How the data were processed

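The deposited values are counts, whole numbers of reads per gene: the authors aligned reads with STAR 2.5.2b and counted them with featureCounts 1.5.1, per the submitters' processing notes. Those notes name a human build, GRCh38, although the symbols are those of mouse, so no coordinate was taken from the files. Whole-brain libraries came in 1 table per sample and all others in 1 joint table, so levels are not compared across the 2 sets. The 32 genes, their roles and the other gene lists were chosen with earlier results of these data known.

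Counts were tested in R 4.3.3 with edgeR 4.0.16 (robust quasi-likelihood fit, TMM scaling, filterByExpr with a minimum count of 10, two-sided) in 1 fit each for whole brain, cortex, hippocampus and the regions. The region fit held the animal as a block, from the animal numbers in the labels; deviations of the 2 samples of an animal correlated at 0.027 to 0.115, with 4 of 11 over 0.1. DESeq2 1.42.0, RLE size factors, other filters, fits of the groups compared alone and omitted libraries were alternatives. Scripts were tested on simulated counts. The SE is the log2 difference divided by the square root of the quasi-likelihood F. List levels are means of log2(CPM + 1). Replicate pairs all differed by more than counting noise (chi-square per degree of freedom 10.09 to 60.25 over 61 pairs). The labels do not say how the animals were spread over litters or sorts, so p-values measure the spread between these samples. Every gene past the threshold is named, up to 12 per comparison by p, with 14 genes always described and up to 3 called genes per direction from the other lists. Exon lengths are from GENCODE M21 and promoters from RefSeq. Protein sequences were not used here.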

Additional observations from a re-analysis of the deposited data

Results flagged for a closer look

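For 4 folding genes the GF libraries lay wholly above the SPF libraries in whole brain and wholly below them in hippocampus of at least 1 genotype. Opposite signs without such separation were found for most folding genes, as the counts of signs above show. In each setting whose log2 difference is listed next, every GF library lay on 1 side of every SPF library. The log2 difference of Calr was 0.30 in whole brain, -0.42 in WT hippocampus and -0.56 in 5xFAD hippocampus. That of Sdf2l1 was 0.36 in whole brain, -0.60 in WT and -1.04 in 5xFAD hippocampus. Pdia6 was at 0.23 in whole brain, -0.32 in WT and -0.74 in 5xFAD hippocampus, and Pdia4 at 0.30 in whole brain and -0.37 in 5xFAD hippocampus. In WT hippocampus the Pdia4 groups overlapped, with the highest GF library at 265 CPM and the lowest SPF library at 257. By edgeR, Pdia6 was not called in whole brain, Calr, Sdf2l1 and Pdia6 were not called in WT hippocampus, and Pdia4 was not called in 5xFAD. Without SPF2140 and SPF2142 the 5xFAD values were -0.39 for Calr, -0.57 for Sdf2l1, -0.50 for Pdia6 and -0.26 for Pdia4. These genes were picked for this order of libraries, and the share of all genes with it was not counted. The difference between tissues itself was not tested, since the tissues differ in age, sex-linked expression and counting table, which cannot be told apart.

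In 136 groups of 4 or more libraries, each for 1 gene of a named subset of the 32, a single library stood apart 5 times. Chance gives about 1 in 20, and 5 of 136 is not above that rate. Canx in cortex GF was lowest in GF529 at 491 CPM, with the next library at 565. The other 4 concern Trib3 at levels near 0: 1.74 CPM in GF532 of cortex GF, 0.506 in SPF2 of cortex SPF and 0.476 in SPF2 of hippocampal WT SPF, where all other libraries of the group were at 0, and 0.961 in GF3 of whole-brain GF, where the next was at 0.258.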

How the results depend on the processing

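No called log2 difference changed sign under any alternative run, while 103 of the alternative values of called genes no longer passed the threshold (161 did); among differences that had not passed, 539 values changed sign, Hspa5 in the genotype interaction among them. Counts of the 32 genes called are given as the reported count and then the alternatives that moved it by over 1.5 times. DESeq2 called 7 in place of 4 in whole brain, 1 in place of 0 in cortex GF against SPF, 4 in place of 2 with acetate in cortex, 3 in place of 1 in WT hippocampus both for GF against SPF and for GFA against GF, 1 in place of 0 for GFA against SPF in WT and in 5xFAD and for GFA against GF in 5xFAD, 6 in place of 2 and 2 in place of 0 for 5xFAD against WT in SPF and GF, and 9, 3 and 7 in place of 0 between regions in SPF, GF and GFA. With no filter, 1 was called in cortex GF against SPF, 0 in WT hippocampus GF against SPF and GFA against GF, 0 for 5xFAD against WT in GFA, and 4, 2 and 6 between regions in SPF, GF and GFA. With a mean of at least 5 CPM, 1 was called in cortex GF against SPF and for 5xFAD against WT in GF, and 3 and 2 between regions in SPF and GFA. RLE size factors gave 0 for WT hippocampus GFA against GF and 1 between regions in GFA. Fits of the groups compared alone gave 6 for cortex GFA against GF, 0 for both WT hippocampus comparisons with a call, 3 for 5xFAD GF against SPF, 1 for 5xFAD GFA against GF and 0 for 5xFAD against WT in SPF. Without the shallow libraries (WT SPF4 and SPF2142), 0 were called in WT hippocampus GF against SPF and for 5xFAD against WT in SPF. Without GF530 and GFA518, which have few detected genes, 2 were called for WT GFA against GF and 0 for 5xFAD against WT in GFA. Without GF1 and GF4 of whole brain, chosen after seeing the data, 1 was called in whole brain. Without SPF2140 and SPF2142, chosen after seeing the data, 1 was called for 5xFAD GF against SPF and 0 for 5xFAD against WT in SPF. The share of all genes called under each alternative is not given, and the cause of these moves was not tested.

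Leaving out 1 library at a time gave 1 to 4 calls in whole brain, 0 to 2 in cortex GF against SPF, 0 to 3 for GFA against GF and 0 to 1 for GFA against SPF in cortex. In WT hippocampus it gave 0 to 1, 0 to 2 and 0 to 1 in the same order. It gave 2 to 9 for 5xFAD GF against SPF, 0 to 7 for 5xFAD against WT in SPF, 0 for it in GFA, and 0 in the other comparisons. With the replicate block in whole brain, where the numbers name different mice and same-numbered deviations correlated at -0.037 to -0.003, 3 genes were called and not 4 (Sdf2l1, edgeR adjusted p = 0.059). Without the animal block 0 were called between regions. Depth limits Trib3, and the 5743890 counts of SPF2142 limit its low genes.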
